A study of Sus scrofa with 4 samples.

Results

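The expression of 10 genes for amino acid transporters was followed in sorted pig epidermis: SLC3A2, SLC7A1, SLC7A2, SLC7A5, SLC7A8, SLC7A11, SLC38A1, SLC38A2, SLC43A1 and SLC43A2. They were chosen by name, as carriers of the SLC7, SLC38 and SLC43 families with the SLC7 partner SLC3A2. Earlier results of these data were known at that choice, and other members of these families are not among the 10. All 10 were found among the 29837 named genes counted. RNA was sequenced from LGR5-high and LGR5-negative epidermal cells of the juvenile pigs 88R and 95R, which gave 2 libraries each, 1 per population. In these pigs 1 LGR5 allele carries H2B-GFP, a green fluorescent histone placed under the LGR5 promoter, and both populations carry that allele. The LGR5-high cells were sorted as bright for GFP and the LGR5-negative cells as lacking it, from skin whose dermis had been removed by hand after Dispase treatment. The founder animals were made by nuclear transfer from edited clonal fibroblast lines. Whether 88R and 95R were founders or progeny is not given in the sources used here.

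Amino acids cross the plasma membrane on carriers that differ in what they take and in what drives them. SLC3A2 (4F2hc) is a heavy chain that carries nothing itself but brings SLC7 light chains to the membrane, among them SLC7A5 (LAT1) and SLC7A8 (LAT2), exchangers of large neutral amino acids such as leucine, and SLC7A11 (xCT), which takes up cystine in exchange for glutamate. SLC7A1 and SLC7A2 (CAT1 and CAT2) work without a heavy chain and carry arginine and lysine. SLC38A1 and SLC38A2 (SNAT1 and SNAT2) take up glutamine and other small neutral amino acids together with sodium, and SLC43A1 and SLC43A2 (LAT3 and LAT4) let branched-chain amino acids pass without exchange. Cystine taken up by SLC7A11 feeds glutathione synthesis, and leucine and arginine inside the cell are sensed by the growth kinase complex mTORC1.

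The LGR5-high libraries held 31718762 counts (pig 88R) and 30696803 counts (pig 95R), and the LGR5-negative libraries held 31005224 and 32463362. The sort was checked on LGR5, with 4551 and 6224 counts in LGR5-high against 36 and 109 in LGR5-negative. Expression is given as CPM, the counts of a gene relative to the size of its library after TMM scaling (trimmed mean of M-values). The quasi-likelihood test of edgeR was run over 15980 genes, and those with a Benjamini-Hochberg adjusted p below 0.05 were called higher or lower. Longer transcripts give more counts, so levels are compared between libraries and not between genes. Ratios, shares and sums over several genes, in which longer transcripts weigh more, are likewise read only between libraries. The cells were counted in bulk, where fewer cells of a type and less RNA per cell cannot be told apart.

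Of the 10 carriers, 9 had enough counts for the test. SLC3A2, SLC7A2, SLC7A5, SLC7A8, SLC7A11 and SLC38A1 were higher in LGR5-high, so that 6 of 9 rose where 22.7% of all tested genes did. SLC38A2 and SLC43A2 were lower, which is 2 of 9 beside 22.0% of all tested genes. SLC7A1 was not called, and SLC43A1 was too low to be tested. The median log2 fold change of the 9 carriers was 1.95, with 2.09 (88R) and 1.81 (95R) within the pigs, beside 0.02 for all tested genes. None of the 9 passed the filter on low counts through a single population. These p-values rest on the spread between 2 pigs, with 1 library of each population per pig. When the spread of each gene was estimated alone, by Student's test on log2 CPM, SLC3A2 and SLC7A2 passed, and the other 6 called genes had adjusted p-values between 0.0512 and 0.0888.

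**Figure D1:**
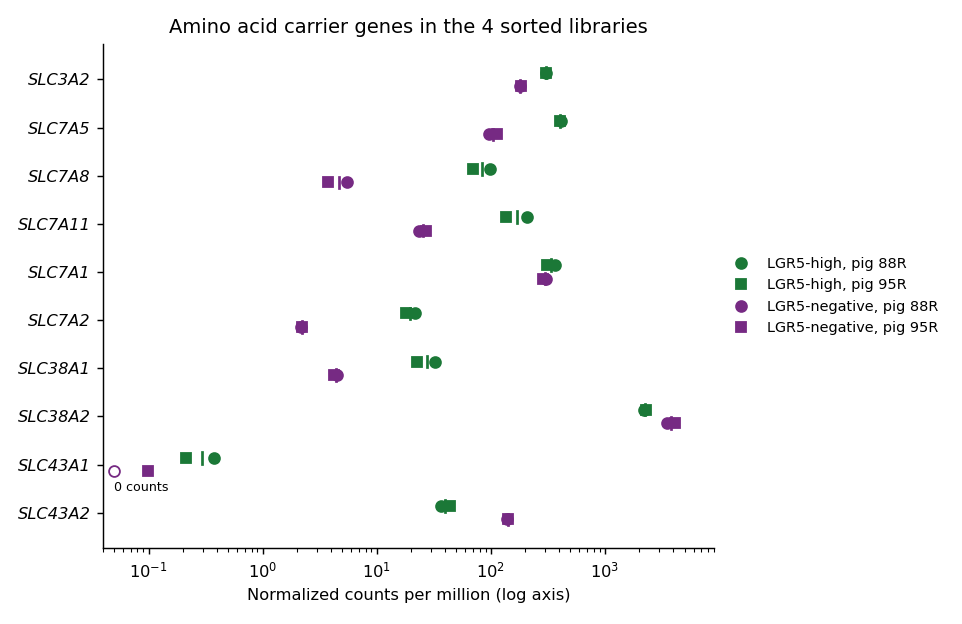
Normalized CPM (log axis) of the 10 carrier genes, with 1 point per library, circles for pig 88R, squares for pig 95R and vertical ticks for the mean of a population. The green LGR5-high points lie to the right of the purple LGR5-negative points for 8 genes and to the left for SLC38A2 and SLC43A2. Among the 8 are SLC7A1, which was not called, and SLC43A1, which was too low to be tested. With 2 libraries per population, such a separation of points is not a test, and the share of all genes that separate was not counted. The open circle marks the LGR5-negative library of pig 88R, which held 0 counts of SLC43A1.

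The heavy chain SLC3A2 had 306 CPM in LGR5-high of pig 88R and 305 CPM in that of pig 95R, against 180 and 182 CPM in LGR5-negative, and the values of all genes below are given in this order of pigs. The pigs nearly coincided within each population, and the populations were far apart. The difference was 0.75 on the log2 scale (standard error 0.0735, adjusted p = 7.99e-04), a fold of 1.69, and within the pigs it was 0.76 (88R) and 0.74 (95R).

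The light chains SLC7A5, SLC7A8 and SLC7A11 were all higher in LGR5-high. SLC7A5 had 412 and 402 CPM in LGR5-high, and 96.7 and 114 CPM in LGR5-negative. Its populations did not overlap, with a log2 fold change of 1.95 (standard error 0.106, adjusted p = 1.33e-04), or 3.86-fold. The RefSeq annotation of Sscrofa11.1 lists pig SLC7A5 as a long non-coding RNA and not as a protein-coding gene, so the counts of this symbol are read here as counts of that locus.

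SLC7A8 showed the largest fold of the 9 tested carriers. It had 99.2 and 69.9 CPM in LGR5-high, and 5.54 and 3.74 CPM in LGR5-negative, where 158 and 113 reads were counted. Pig 88R had the higher value in both populations. LGR5-high differed from LGR5-negative by a log2 fold change of 4.19 (standard error 0.261, adjusted p = 1.92e-04), a fold of 18.3, and the pigs gave nearly the same value, 4.15 (88R) and 4.20 (95R). Of all tested genes, 97.8% had a lower log2 fold change.

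The cystine carrier SLC7A11 had 207 and 136 CPM in LGR5-high, and 23.3 and 27.3 CPM in LGR5-negative. The populations were well apart, with pig 88R above pig 95R in LGR5-high and below it in LGR5-negative. LGR5-high differed from LGR5-negative by a log2 fold change of 2.76 (standard error 0.221, adjusted p = 4.11e-04), a fold of 6.79. It was 3.15 (88R) and 2.31 (95R) within the pigs, and this difference of 0.84 between the pigs was the largest among the 9 tested of these 10 genes, though carriers outside them differed by more, such as SLC36A2 (3.14) and SLC38A4 (1.36). With 1 library per population and pig, the difference could not be tested.

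Counts of 2 genes can be set against each other within a library, which does not depend on the scaling between libraries. Per 100 counts of SLC3A2 there were 135 and 132 counts of SLC7A5 in LGR5-high, and 53.6 and 62.7 in LGR5-negative. The same ratio for SLC7A8 was 32.4 and 22.9 in LGR5-high, and 3.07 and 2.05 in LGR5-negative. For SLC7A11 it was 67.8 and 44.4 in LGR5-high, and 12.9 and 14.9 in LGR5-negative. Each of these 3 ratios was higher in LGR5-high in both pigs. Summed over SLC7A5, SLC7A8 and SLC7A11, there were 235 and 199 light-chain counts for every 100 counts of SLC3A2 in LGR5-high, and 69.6 and 79.7 in LGR5-negative. With SLC7A6, SLC7A7 and SLC7A10, other partners of SLC3A2, the sums were 238 and 202 against 76.8 and 88.1. Within the LAT pair, SLC7A8 had 24.1 and 17.4 counts for every 100 of SLC7A5 in LGR5-high, and 5.73 and 3.27 in LGR5-negative. The pairs of genes were chosen after their values were seen, and no test was run on the ratios.

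Of the cationic carriers, SLC7A2 was higher in LGR5-high and SLC7A1 was not called. SLC7A1 had 367 and 313 CPM in LGR5-high, and 307 and 287 CPM in LGR5-negative. The lower LGR5-high library lay just above the higher LGR5-negative one. With a log2 fold change of 0.20 (standard error 0.104), SLC7A1 did not pass the test (adjusted p = 0.179), while library size alone as the scaling gave 0.42 with an adjusted p of 0.0199. That scaling also moved the median log2 fold change of all genes from 0.02 to 0.24.

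SLC7A2 had 21.6 and 18.0 CPM in LGR5-high, and 2.17 and 2.22 CPM in LGR5-negative. The populations were far apart in both pigs, with 743 and 594 counts against 62 and 67. LGR5-high differed from LGR5-negative by a log2 fold change of 3.17 (standard error 0.177, adjusted p = 1.44e-04), with 3.28 (88R) and 2.98 (95R) within the pigs. For every 100 counts of SLC7A1 there were 5.88 and 5.74 counts of SLC7A2 in LGR5-high, and 0.707 and 0.773 in LGR5-negative. Whether the changes of SLC7A1 and SLC7A2 differ was not tested beyond this ratio, which has no test of its own.

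**Figure D2:**
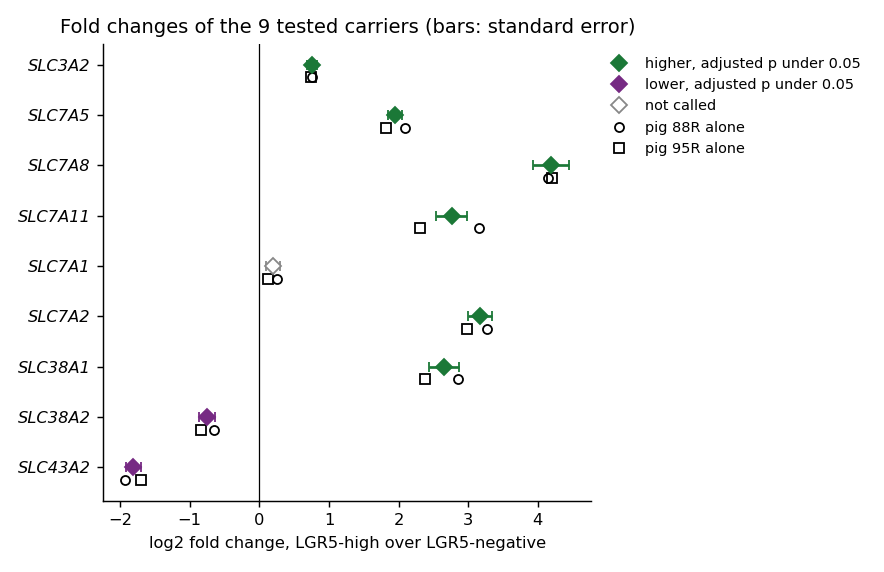
Log2 fold change of LGR5-high over LGR5-negative for the 9 tested carriers, with the standard error as bars, and the log2 fold change within each pig as open circles (88R) and squares (95R). The 6 green genes lie between 0.75 and 4.19, the purple SLC38A2 and SLC43A2 at -0.75 and -1.81, and the open grey SLC7A1 at 0.20.

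The sodium-coupled carriers SLC38A1 and SLC38A2 moved in opposite directions. SLC38A1 had 32.5 and 22.5 CPM in LGR5-high, and 4.45 and 4.27 CPM in LGR5-negative. Its LGR5-negative libraries were close together and far below LGR5-high. The log2 fold change came to 2.66 (standard error 0.215, adjusted p = 4.27e-04), a fold of 6.30, with 2.85 (88R) and 2.38 (95R) within the pigs. In the RefSeq annotation of Sscrofa11.1 the span of SLC38A1 overlaps 3 predicted loci, which held between 4 and 143 counts per library here. All 3 had more counts in LGR5-high in both pigs, the direction of SLC38A1. The largest, LOC106510388, had 143 and 104 counts in LGR5-high, and 35 and 28 in LGR5-negative. The strand setting of the counting is not given in the sources used here, so reads of these loci and of SLC38A1 may not have been kept apart.

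SLC38A2 had 2224 and 2291 CPM in LGR5-high, and 3488 and 4106 CPM in LGR5-negative. Both LGR5-negative libraries were above both LGR5-high libraries, and pig 95R was the higher of the LGR5-negative pair. The log2 fold change came to -0.75 (standard error 0.111, adjusted p = 0.00355), or 1.68-fold lower in LGR5-high, with -0.65 (88R) and -0.84 (95R) within the pigs. For every 100 counts of SLC38A2 there were 1.46 and 0.982 counts of SLC38A1 in LGR5-high, and 0.128 and 0.104 in LGR5-negative. SLC38A2 took 60.0% and 63.6% of the summed counts of the 10 carriers in LGR5-high, and 82.1% and 84.3% in LGR5-negative. The summed CPM of the 10 genes was lower in LGR5-high (3707 and 3602) than in LGR5-negative (4247 and 4869). Without SLC38A2 the sum was 1483 and 1311 CPM in LGR5-high, and 759 and 763 CPM in LGR5-negative.

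The annotation places SLC38A4, another carrier of the SNAT family, next to SLC38A2. SLC38A4 had 685 and 907 counts in LGR5-high, and 34 and 132 counts in LGR5-negative. It was higher in LGR5-high by 3.08 on the log2 scale (standard error 0.536, adjusted p = 0.00627), so that the neighbours SLC38A2 and SLC38A4 were called in opposite directions. SLC38A4 was picked for its place after its values were seen.

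The uniporters of branched-chain amino acids were SLC43A1 and SLC43A2. SLC43A2 had 36.5 and 43.6 CPM in LGR5-high, and 139 and 142 CPM in LGR5-negative. The populations did not overlap, and the LGR5-negative libraries nearly coincided. The log2 fold change came to -1.81 (standard error 0.109, adjusted p = 1.76e-04), or 3.51-fold lower in LGR5-high, with -1.93 (88R) and -1.70 (95R) within the pigs. Of all tested genes, 4.34% had a lower log2 fold change. SLC43A2 and SLC7A5, both carriers of leucine, were thus called in opposite directions. There were 8.85 and 10.9 counts of SLC43A2 for every 100 of SLC7A5 in LGR5-high, and 143 and 124 in LGR5-negative.

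SLC43A1 had 13 and 7 counts in LGR5-high, and 0 and 3 counts in LGR5-negative, and did not pass the filter on low counts. The floor of measurement was set at 3 counts, equal to 0.0872 to 0.105 CPM depending on the library, and both LGR5-negative values were at or under it. Pooled over the pigs, 20 counts stood against 3, a ratio of 5.81 with an exact 95% interval from 1.72 to 30.5. The interval covers counting error only, not the spread between pigs.

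**Figure D3:**
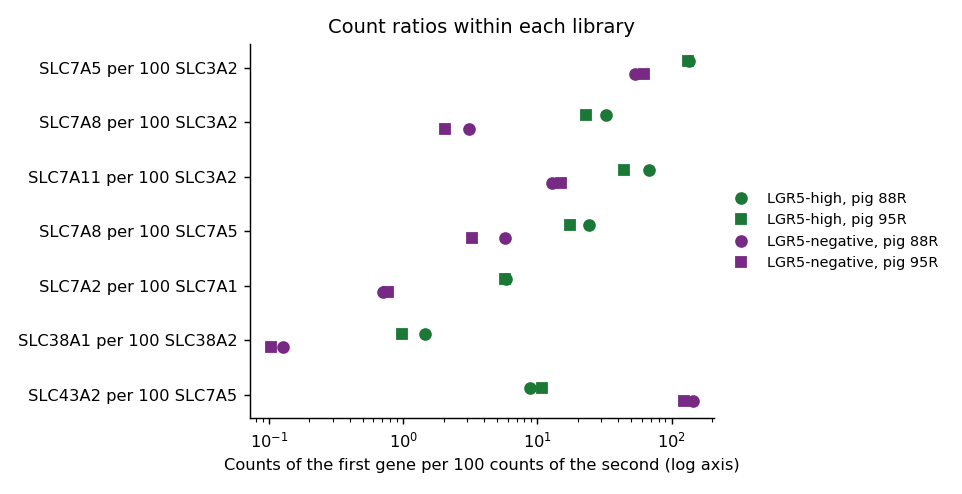
Counts of one carrier per 100 counts of another in the same library (log axis), with green for LGR5-high, purple for LGR5-negative, circles for pig 88R and squares for pig 95R. The first 6 ratios are higher in both LGR5-high libraries, and the ratio of SLC43A2 to SLC7A5 is lower, 8.85 and 10.9 against 143 and 124.

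Beyond these 10 genes, 33 other amino acid carriers were listed, of which 25 could be tested. In LGR5-high 6 of the 25 were higher and 5 lower, shares close to the 22.7% and 22.0% of all tested genes, with a median log2 fold change of 0.06. With the pig as a replicate block 9 were higher, where 28.5% of all genes were, the added genes being SLC38A5, SLC38A7 and SLC16A10 (adjusted p = 0.0298, 0.0150 and 0.0175 with the block, 0.127, 0.0737 and 0.0857 without). These 3 genes were named after their values were seen. Without the LGR5-high library of pig 88R, 3 were lower, where 14.8% of all genes were. The 3 with the largest increase were SLC36A2, SLC6A15 and SLC6A14. SLC36A2, a proton-coupled carrier of small amino acids, had 184 and 93 counts in LGR5-high, and 1 and 12 in LGR5-negative (log2 fold change 4.19, adjusted p = 0.00762). SLC6A15, a sodium-coupled carrier of branched-chain amino acids and proline, had 1200 and 916 counts against 54 and 94 (log2 fold change 3.64, adjusted p = 3.01e-04). SLC6A14, a carrier of neutral and cationic amino acids, had 46 and 45 counts against 3 and 5, and passed the filter through LGR5-high alone (log2 fold change 3.27, adjusted p = 0.00242).

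The 3 other carriers with the largest decrease were SLC6A17, SLC3A1 and SLC7A6. SLC6A17, a vesicle carrier of neutral amino acids, had a log2 fold change of -3.40 (adjusted p = 4.96e-04). SLC3A1, the heavy chain of SLC7A9, had 43 and 46 counts in LGR5-high, and 135 and 298 in LGR5-negative (log2 fold change -2.46, adjusted p = 0.00511), while SLC7A9 itself held 1 count in all 4 libraries together. SLC7A6, a further light chain of SLC3A2, had 207 and 218 counts against 308 and 362 (log2 fold change -0.85, adjusted p = 0.00848). The light chains of SLC3A2 thus did not all rise. SLC7A7 had 99 and 89 counts in LGR5-high, and 64 and 101 in LGR5-negative, and was not called, and SLC7A10 held 1 count in total.

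Enzymes that use or make the carried amino acids were listed, among them enzymes of arginine, polyamines, glutamine, the branched-chain amino acids and glutathione. Of 24 tested, 11 were called higher in LGR5-high and 5 lower, with a median log2 fold change of 0.55. Of all tested genes 22.7% were higher and 22.0% lower, so the count of lower enzymes was close to that background. BCAT1, the cytosolic branched-chain aminotransferase, had 175 and 191 counts in LGR5-high, and 10 and 23 in LGR5-negative (log2 fold change 3.27, adjusted p = 0.00154). The nitric oxide synthases NOS1 and NOS2, which use arginine, had log2 fold changes of 2.86 and 2.41 (adjusted p = 0.00555 and 0.00402) on low counts, at most 59 and 96 in a library, and NOS1 passed the filter through LGR5-high alone. ASL, which forms arginine from argininosuccinate, had 42 and 46 counts against 235 and 234 (log2 fold change -2.61, adjusted p = 4.93e-04). ODC1, the first enzyme of polyamine synthesis, had a log2 fold change of -1.63 (adjusted p = 0.00439), and SAT1, which acetylates polyamines, one of -1.34 (adjusted p = 1.68e-04).

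The subunits of the enzyme that starts glutathione synthesis, GCLC and GCLM, and the mitochondrial aminotransferase BCAT2 were picked from the same list after their values were seen. GCLC had 8773 and 10060 counts in LGR5-high, and 2615 and 2885 in LGR5-negative (log2 fold change 1.58, adjusted p = 2.56e-04). GCLM had 4830 and 4505 counts against 715 and 882 (log2 fold change 2.35, adjusted p = 8.05e-05). Both subunits and SLC7A11 were thus higher in LGR5-high in both pigs. BCAT2 had a log2 fold change of 1.19 (adjusted p = 0.00538).

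Cells short of amino acids raise the translation of ATF4, a transcription factor that is known to induce SLC7A11, SLC7A5, SLC3A2 and SLC38A2 along with enzymes of amino acid synthesis. Of 24 tested genes of this response, 4 were called higher in LGR5-high and 9 lower, beside 22.7% and 22.0% of all tested genes, with a median log2 fold change of -0.17. With library size as the only scaling, 7 were higher and 5 were lower, beside 34.2% and 14.6% of all genes. Without the LGR5-high library of pig 95R, 2 were higher, beside 13.9% of all genes. The 3 with the largest decrease were SESN2, TRIB3 and ATF3. SESN2, a leucine sensor, had 1015 and 983 counts in LGR5-high, and 2291 and 2774 in LGR5-negative (log2 fold change -1.54, adjusted p = 2.26e-04). TRIB3, a pseudokinase induced by ATF4, had a log2 fold change of -1.38 (adjusted p = 7.39e-04), and the stress factor ATF3 one of -0.90 (adjusted p = 0.00335). ATF4 itself, named after its values were seen, had 21143 and 22193 counts against 26888 and 27175 (log2 fold change -0.52, adjusted p = 0.00587). The 3 with the largest increase were DDIT4, CTH and ALDH1L2. DDIT4, an inhibitor of mTORC1, had 3905 and 3863 counts against 823 and 893 (log2 fold change 1.98, adjusted p = 6.71e-05). CTH, which makes cysteine from cystathionine, had a log2 fold change of 1.96 (adjusted p = 0.00240), and the folate enzyme ALDH1L2 one of 0.82 (adjusted p = 0.0132).

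**Figure D4:**
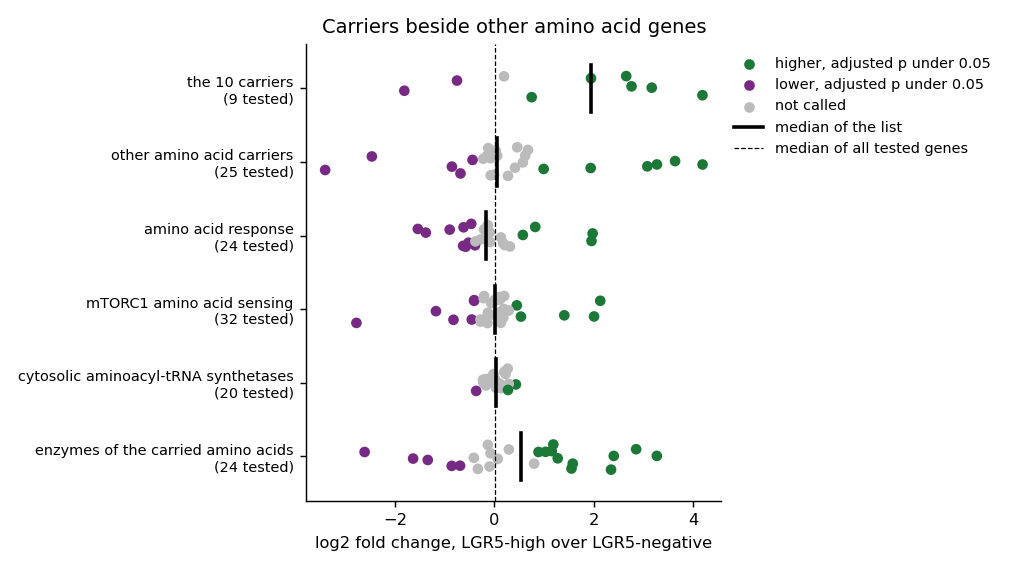
Log2 fold change of each tested gene of the 10 carriers and of 5 other lists of amino acid genes, with green for genes called higher in LGR5-high, purple for genes called lower, grey for genes not called, a black bar at the median of a list and a dashed line at the median of all tested genes. The carriers have a median of 1.95, and the medians of the other 5 lists lie between -0.17 and 0.55.

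Of 32 genes that sense amino acids for mTORC1 or form the complex, all were tested, 5 were higher and 6 were lower, with a median log2 fold change of 0.02. Both counts were somewhat below the background of 22.7% and 22.0% of all tested genes, by few genes, and this was not tested. With library size as the only scaling, 13 were higher and 3 were lower, beside 34.2% and 14.6% of all genes. Without the LGR5-high library of pig 88R, 3 were higher (14.2% of all genes), and without that of pig 95R, 3 were higher and 3 were lower (13.9% and 13.0% of all genes). SESN3, a sestrin related to the leucine sensor SESN2, had 12363 and 10765 counts in LGR5-high, and 2252 and 2335 in LGR5-negative (log2 fold change 2.13, adjusted p = 6.75e-05). CASTOR2, a paralogue of the arginine sensor CASTOR1, had 670 and 681 counts against 108 and 186 (log2 fold change 2.01, adjusted p = 0.00166), and SESN1 had a log2 fold change of 1.41 (adjusted p = 0.00809). The sestrins were thus called in different directions, SESN1 and SESN3 higher and SESN2 lower. RRAGD, one of the Rag GTPases that bring mTORC1 to the lysosome, had 65 and 52 counts against 315 and 384 (log2 fold change -2.77, adjusted p = 3.29e-04). DEPTOR, an inhibitor of mTOR, had a log2 fold change of -1.17 (adjusted p = 3.28e-04), and the S6 kinase RPS6KB2 one of -0.82 (adjusted p = 0.00378).

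The 20 cytosolic aminoacyl-tRNA synthetases, which load amino acids onto tRNA, were all tested. Of these, 2 were higher and 1 was lower, below the 22.7% and 22.0% of all tested genes, with a median log2 fold change of 0.03. GARS and VARS had log2 fold changes of 0.44 and 0.28, and NARS one of -0.36 (adjusted p = 0.0141, 0.0361 and 0.0108). With the pig as a replicate block, 4 were higher and 2 were lower, beside 28.5% and 27.2% of all genes. With library size as the only scaling the counts were 11 and 0, beside 34.2% and 14.6% of all genes, with 11 and 0 at an unadjusted p-value under 0.05. No synthetase was called in either direction without the LGR5-high library of pig 88R, where 2 and 1 had an unadjusted p-value under 0.05, or without that of pig 95R, where 1 and 1 did. Of all genes 14.2% were higher and 14.8% lower in the first case, and 13.9% and 13.0% in the other. Without the LGR5-negative library of pig 88R, 0 were higher, with 1 at an unadjusted p-value under 0.05, beside 18.3% of all genes.

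Markers of the cells in the sort were followed beside the carriers. The background for their calls was 22.7% of all tested genes higher and 22.0% lower. The cells were sorted on GFP from the LGR5 locus, so a rise of LGR5 was set by the sort and only checks it. Of 4 markers of LGR5-high follicle cells, 3 were higher, LGR5 and the transcription factors SOX9 and LHX2, with log2 fold changes of 6.03, 4.41 and 6.35. The other, the bulge keratin KRT15, had 1115 and 2344 CPM in LGR5-high, and 715 and 1323 CPM in LGR5-negative. Its populations overlapped, and its log2 fold change of 0.76 was not called (adjusted p = 0.187), but was with the pig as a replicate block (adjusted p = 2.13e-06). KRT1 and KRT10 of differentiated epidermis had -3.56 and -3.44. KRT5 of basal keratinocytes had 23650 and 25475 CPM in LGR5-high, and 29546 and 26116 CPM in LGR5-negative. Its log2 fold change of -0.18 was not called (adjusted p = 0.265). Of 8 melanocyte markers, 5 were lower and 3 were not called, with a summed level of 64.5 and 64.1 CPM in LGR5-high, and 86.7 and 263 CPM in LGR5-negative.

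Of the 4 tested markers of Langerhans and immune cells, 3 were lower and AIF1 was higher, with sums of 13.98 and 14.28 CPM in LGR5-high, and 87.9 and 127 CPM in LGR5-negative. CD3E and CD3D of T cells had 0 counts in both LGR5-high libraries and at most 2 in a LGR5-negative library. Of 4 endothelial markers, 3 were lower, with sums of 4.71 and 6.63 CPM against 17.1 and 18.6. Of 6 fibroblast markers, COL3A1, DCN, LUM and PDGFRA were lower, with log2 fold changes from -4.10 to -0.82, and THY1 and COL1A1 were higher, with 1.33 and 1.85. The sums were 734 and 914 CPM in LGR5-high, and 613 and 341 CPM in LGR5-negative, of which THY1 made up 503 and 466 CPM against 267 and 117, and COL1A1 142 and 331 CPM against 94.0 and 37.2. Both tested smooth muscle markers were higher, with sums of 9.07 and 9.86 CPM against 3.33 and 4.30, while DES had at most 2 counts in a library. Of 3 tested markers of nerve and Schwann cells, 2 were higher, with sums of 58.3 and 78.1 CPM against 3.12 and 4.99, while CDH19 had 0 counts in every library. Of the markers called lower, PTPRC and CD207 (immune), CDH5 and KDR (endothelium), and LUM and PDGFRA (fibroblasts) passed the filter through LGR5-negative alone. The filter thus favoured a lower call for them, and their calls give no support of their own. The counts of called markers rest on few genes per cell type, beside 22.7% of all tested genes called higher and 22.0% lower. The part of all these cell types in the differences of the carriers was not tested.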

How the data were processed

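Epidermal cells of pigs 88R and 95R were sorted into LGR5-high and LGR5-negative populations, and poly(A) RNA was sequenced (4 libraries). The authors deposited raw read counts per gene. Per the submitters' processing notes they used Trimmomatic 0.36, STAR 2.5.2b and featureCounts of Subread 1.5.2. The genome build, annotation and strand setting are not given in the sources used here. An entry without a gene name, 0.360% to 0.626% of a library, was left out.

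Genes were filtered with filterByExpr (minimum count 10, minimum total 15), scaled by TMM and tested with edgeR 4.0.16 (R 4.3.3) by the quasi-likelihood test without a block, with Benjamini-Hochberg adjustment over all 15980 tested genes and a threshold of 0.05. The scripts were tested on simulated data. Fold changes within a pig used a prior count of 2. A signal of 3 counts, 0.0872 to 0.105 CPM, was taken as the floor. Intervals and floors cover counting error only. Libraries of the same population differed by more than sampling noise (chi-square per degree of freedom 21.7 and 23.7). The populations were paired by the animal number in the labels, and libraries of the same pig deviated together (correlation 0.370).

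The alternatives were other scalings, filters on low counts, the pig as a replicate block, DESeq2 1.42.0, limma-voom (limma 3.58.1), Student's test on log2 values of CPM plus 1, and leaving out each library. The 10 genes and the gene lists were chosen with earlier results of these data known, so they give no independent support. All 10 genes were named. Of each other list the text names the called genes with the 3 largest and 3 smallest log2 fold changes that went the same way in both pigs, and says where a gene was picked after its values were seen. The RefSeq table of Sscrofa11.1 was used only for names, gene types, neighbours and overlapping loci. Transcript lengths were not used here. KRT14, CD1A and PRODH were not analysed here.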

Additional observations from a re-analysis of the deposited data

How the results depend on the processing

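Of the 9 tested carriers, SLC3A2 and SLC7A2 kept their calls under all 14 alternatives, none changed direction, and no call was lost when a library was left out, where the log2 fold change of SLC7A8 ranged from 3.91 to 4.49, that of SLC7A11 from 2.42 to 3.04 and that of SLC7A1 from 0.07 to 0.31. Under Student's test on log2 CPM, which shares no spread between genes, 2 carriers were higher and 0 lower, with 6 and 2 at an unadjusted p-value under 0.05. That test called 544 genes higher and 502 lower, which is 3.4% and 3.14% of all tested genes. It called 1 and 0 of the other carriers (4 and 4 unadjusted). In the amino acid response it called 1 and 0 (3 and 6 unadjusted). It called 2 and 2 of the mTORC1 genes and 2 and 2 of the enzymes. Of the synthetases 0 and 0 were called (2 and 1 unadjusted). With library size as the only scaling, 5473 genes were higher and 2326 lower, which is 34.2% and 14.6% of all genes. Of these calls 70.2% were higher in place of 50.9%, and the median log2 fold change of all genes moved from 0.02 to 0.24. This scaling called 7 and 5 genes of the amino acid response and 13 and 3 of the mTORC1 genes. It called 11 and 0 of the synthetases (11 and 0 unadjusted), and SLC7A1 was called higher at a log2 fold change of 0.42. Beside 2 synthetases called higher, upper quartile scaling called 5, testing all genes with at least 1 count 1, and at least 10 counts in every library 4. Of all genes, these settings called 26.9%, 15.3% and 21.9% higher. With the pig as a replicate block, 4 synthetases were higher and 2 lower, beside 28.5% and 27.2% of all genes. By DESeq2 with the replicate block 1 was higher, beside 18.8% of all genes. The replicate block changed no call of the 9 carriers (6 higher, 2 lower) and gave 4562 genes higher and 4342 lower, and it called 9 of the other carriers higher and 5 lower, 4 and 11 of the amino acid response, 5 and 8 of the mTORC1 genes and 12 and 7 of the enzymes. With each library left out, 2279 to 3169 genes were higher and 2139 to 3004 lower, lowest without the LGR5-high library of pig 95R. The ranges were 3 to 5 lower for the other carriers (3 without LGR5-high of pig 88R), 2 to 4 higher for the amino acid response (2 without LGR5-high of pig 95R), 3 to 5 higher and 3 to 6 lower for the mTORC1 genes, and 0 to 2 higher and 0 to 1 lower for the synthetases (1 to 5 and 1 to 4 unadjusted). The cause was not tested. SLC43A1 was limited by depth, with at most 13 counts in a library.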
